A study of Mus musculus with 15 samples.

Results

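Hearts of conditional Nat10 knockout mice given NAT10 with the amino acid substitution G641E were compared with knockout hearts given green fluorescent protein (GFP). The comparison used 6 of the 15 heart libraries of the series, 3 in each group, each from a biological replicate according to the labels. A subcutaneous injection of adeno-associated virus serotype 9, a vector used to reach heart muscle, was given on postnatal day 1, and the hearts were taken 12 to 14 days afterwards. The cardiac troponin T promoter, active in heart muscle cells, drove each transgene. The groups are called CKO_GFP (Nat10-CKO, GFP) and CKO_G641E (Nat10-CKO, NAT10 G641E). Values from 3 further groups are set beside them: ff_GFP, Nat10 flox/flox mice with GFP, and Nat10-CKO mice with NAT10 (CKO_NAT10) or with NAT10 carrying K209A (CKO_K209A). All groups therefore carried virus, and ff_GFP mice carried the floxed alleles. The Cre line of the knockout, the species of the NAT10 coding sequence and the sex of the animals are not given in the labels.

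NAT10 is a nucleolar enzyme that transfers acetyl groups to cytidine in ribosomal, transfer and messenger RNA, with the adaptor THUMPD1 for transfer RNA. It has an RNA helicase domain and an acetyltransferase domain, and G641E has been used in other systems as a form with impaired acetyltransferase activity. The title of the study names an acetyltransferase and an RNA binding activity of NAT10, and the labels do not say which substitution affects which. In the days after birth, mouse heart muscle leaves the cell cycle, turns from glucose to fatty acids as fuel, and replaces fetal isoforms of contractile and channel proteins with adult ones. Stressed or failing hearts return to a part of the fetal pattern, with natriuretic peptides as its best-known markers.

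Expression was deposited as FPKM, fragments scaled by gene length and library size, and was tested as log2(FPKM + 0.5) in 15321 genes with limma. A gene is said to have risen or fallen, or to be called, where the Benjamini-Hochberg adjusted p over all tested genes was under 0.05. Differences are on this log2 scale, which understates the change of genes near or below 0.5 FPKM. The libraries held between 13218352 and 15912700 reads in genes. The first principal component took 51.0% of the variance, and CKO_G641E libraries lay between -28.7 and -24.2 on it, CKO_GFP libraries between 19.9 and 54.3, and ff_GFP libraries between -43.1 and -40.1. On the second component, with 9.95%, CKO_GFP replicate 1, CKO_G641E replicate 2 and CKO_NAT10 replicate 2 stood apart at -43.8, -27.4 and -23.0. These 3 libraries had the highest levels of interferon-stimulated genes, as given with that list. Xist, the RNA of the inactive X chromosome, was above 1 FPKM in CKO_GFP replicates 1 and 2 and in no CKO_G641E library. Transgene and sex were thus partly confounded in the comparison, and counts with Xist as a term and with CKO_GFP replicate 3 alone are given beside the main ones.

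In CKO_G641E hearts 4793 of the 15321 tested genes (31.3%) differed from CKO_GFP, 2352 higher (15.4%) and 2441 lower (15.9%). Of these, 516 rose and 494 fell at least 2-fold (6.59% together). In 39.9% of tested genes no value of one group lay within the range of the other. The shares of 15.4% higher and 15.9% lower are the background for all counts of list members called against CKO_GFP. Against ff_GFP, 274 genes differed after G641E (1.79%), 96 higher (0.627%) and 178 lower (1.16%). These counts were unstable, with 36 to 55 higher and 34 to 111 lower when any 1 of the 6 libraries was left out, and 153 higher and 81 lower after rescaling to equal reads in genes. With the Xist level as a term in the model, 3792 genes differed from CKO_GFP, 1841 higher and 1951 lower. With CKO_GFP replicate 3 as the only knockout library, which like the CKO_G641E libraries had low Xist, 3865 genes were called, 1889 higher and 1976 lower; the lone library was there assumed to vary like the others. The plot of calls by list shows which functions these genes belonged to, and the plot of list levels shows each library.

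**Figure D1:**
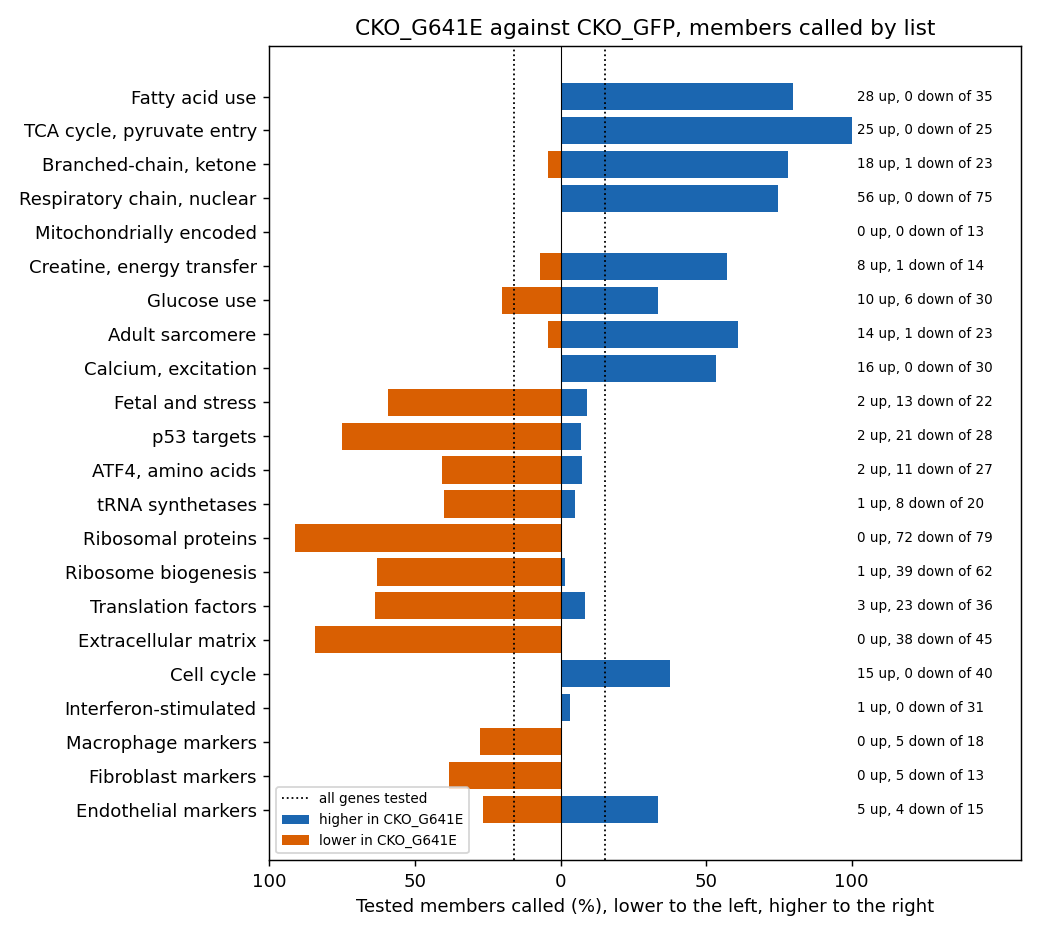
Share of tested members of each gene list called higher (right) or lower (left) in CKO_G641E than in CKO_GFP by limma, in percent, with counts at the right edge; dotted lines mark the share over all tested genes. Lists of mitochondrial fuel use reached 25 of 25 members higher, and 72 of 79 ribosomal protein genes were lower.

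Nat10 itself (ENSMUSG00000027185, chromosome 2, 103721256 to 103761270, GRCm38, like all positions here) was read in every library. Its level was 3.47, 3.43 and 3.53 FPKM in the 3 CKO_GFP hearts and 2.58, 2.29 and 2.1999 FPKM in the 3 CKO_G641E hearts. All CKO_G641E values lay below all CKO_GFP values (log2 difference -0.48, SE 0.11, adjusted p = 0.00599). In ff_GFP hearts it was 4.14, 3.87 and 4.28 FPKM, so the CKO_GFP level was only slightly lower than that of floxed hearts. No separate entry for the transgene exists, and whether its reads fall on this gene is not known. Whole heart also holds many cells in which a troponin promoter is silent. The gene's value therefore says little about the amount of NAT10 G641E made. Why it was lower than in CKO_GFP was not tested.

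Heart muscle markers bear on every list that follows. Of 9 measured cardiomyocyte markers, 7 rose after G641E, and their summed level was 9859 to 14301 FPKM in CKO_GFP, 19206 to 22232 FPKM in CKO_G641E and 22661 to 24722 FPKM in ff_GFP. The tissue was thus heart muscle in every group. In RNA of a whole organ, a smaller share of a cell type and less RNA of a gene per cell cannot be told apart.

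Mitochondrial fuel oxidation was the function with the broadest rise. Of 25 genes of the tricarboxylic acid (TCA) cycle and of pyruvate entry, 25 rose and none fell, with a median log2 difference of 0.74 where the median of all tested genes was 0.00. Of 35 genes of fatty acid uptake and oxidation, 28 rose and none fell, with a median of 0.90. Of 23 genes of branched-chain amino acid and ketone breakdown, 18 rose and 1 fell, with a median of 0.59.

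Cpt2 is the inner membrane carnitine palmitoyltransferase, which turns acylcarnitines back into acyl-CoA for oxidation in mitochondria. It had 30.6, 29.1 and 32.5 FPKM in CKO_GFP and 89.3, 79.8 and 80.99 FPKM in CKO_G641E (log2 difference 1.42, SE 0.09, adjusted p = 7.91e-07). Its ff_GFP level was 122, 124 and 112 FPKM. The groups did not overlap, and each CKO_G641E heart stayed below each ff_GFP heart (log2 difference -0.51, adjusted p = 0.013 against ff_GFP). Etfdh, which passes electrons from fatty acid oxidation to ubiquinone, rose from 28.05 to 31.8 FPKM in CKO_GFP to 66.9 to 74.4 FPKM in CKO_G641E (log2 difference 1.24, SE 0.09, adjusted p = 1.41e-06). Acsl1, the main fatty acyl-CoA synthetase of heart, rose from 40.6 to 47.8 FPKM in CKO_GFP to 89.03 to 96.8 FPKM in CKO_G641E (log2 difference 1.08, SE 0.08, adjusted p = 1.77e-06). Crat, carnitine acetyltransferase, rose by 1.18 (adjusted p = 7.91e-07), and Cpt1b, the muscle form of the outer membrane enzyme, by 0.82 (adjusted p = 0.00908). Cd36, the fatty acid uptake receptor, was at 288, 433 and 435 FPKM in CKO_GFP and 449, 411 and 389 FPKM in CKO_G641E, and was not called (log2 difference 0.13, adjusted p = 0.55). The groups overlapped for Cd36, unlike for the oxidation enzymes named before it.

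Ogdh, the 2-oxoglutarate dehydrogenase of the TCA cycle, had 241, 184 and 193 FPKM in CKO_GFP and 462, 444 and 436 FPKM in CKO_G641E (log2 difference 1.13, SE 0.09, adjusted p = 4.11e-06). In ff_GFP it was 497, 479 and 531 FPKM, and the CKO_G641E level was not called different from it (log2 difference -0.17, adjusted p = 0.442). Cs, citrate synthase, rose by 1.03 (adjusted p = 2.24e-06), and the pyruvate dehydrogenase subunits Dlat and Dld rose by 0.89 and 0.88 (adjusted p = 4.91e-06 and 4.06e-06). Among the amino acid and ketone genes, Acat1, which splits acetoacetyl-CoA, rose from 52.6 to 64.2 FPKM in CKO_GFP to 134 to 139.7 FPKM in CKO_G641E (log2 difference 1.27, SE 0.09, adjusted p = 1.97e-06). Ivd, of leucine breakdown, rose by 1.05 (adjusted p = 2.75e-05), Mut, methylmalonyl-CoA mutase, by 0.86 (adjusted p = 2.98e-05), and Hibch, of valine breakdown, by 0.90 (adjusted p = 3.52e-05). For all of these the 2 groups did not overlap.

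Nuclear genes of the respiratory chain rose in 56 of 75 cases and fell in none, with a median of 0.42. By complex, the count was 26 of 36 for complex I, 7 of 9 for complex III, 8 of 14 for complex IV and 14 of 15 for ATP synthase. Cox7a1, the heart and muscle isoform of a complex IV subunit, had 101, 96.5 and 101 FPKM in CKO_GFP and 228, 245 and 285 FPKM in CKO_G641E (log2 difference 1.34, SE 0.09, adjusted p = 8.42e-07). Its level in ff_GFP was 354, 348 and 320.4 FPKM, above every CKO_G641E heart (log2 difference -0.44, adjusted p = 0.023). Ndufs1 of complex I, Uqcrfs1 of complex III and Atp5a1 of ATP synthase rose by 0.88, 0.86 and 0.84 (adjusted p = 5.15e-06, 1.62e-05 and 8.27e-06). The 13 genes encoded in mitochondrial DNA gave no call, and their median log2 difference was 0.22. One of them, mt-Co3 of complex IV, spread from 801 to 2475 FPKM in CKO_GFP and from 2059 to 4239.7 FPKM in CKO_G641E (log2 difference 0.93, adjusted p = 0.0826), so that the groups overlapped.

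Many genes of these lists still lay below ff_GFP. After G641E, 7 of 35 fatty acid genes, 4 of 25 TCA genes, 2 of 23 amino acid and ketone genes and 6 of 75 respiratory genes were called lower than in ff_GFP, beside 1.16% of all tested genes. None was called higher. Every CKO_G641E heart lay below every ff_GFP heart in 29 of 35 fatty acid genes, 23 of 25 TCA genes, 13 of 23 amino acid and ketone genes and 51 of 75 respiratory genes, beside 15.4% of all tested genes. The list medians against ff_GFP were -0.35, -0.27, -0.23 and -0.22. Distances from ff_GFP, here and in later lists, depend on the library sizes behind the deposited FPKM. Those sizes were 0.908 to 0.933 times the reads in genes in ff_GFP and 0.971 to 0.996 times in CKO_G641E. After rescaling to equal reads in genes, the median of all tested genes against ff_GFP moved from -0.008 to 0.070. The lists were not recounted against ff_GFP after rescaling.

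**Figure D2:**
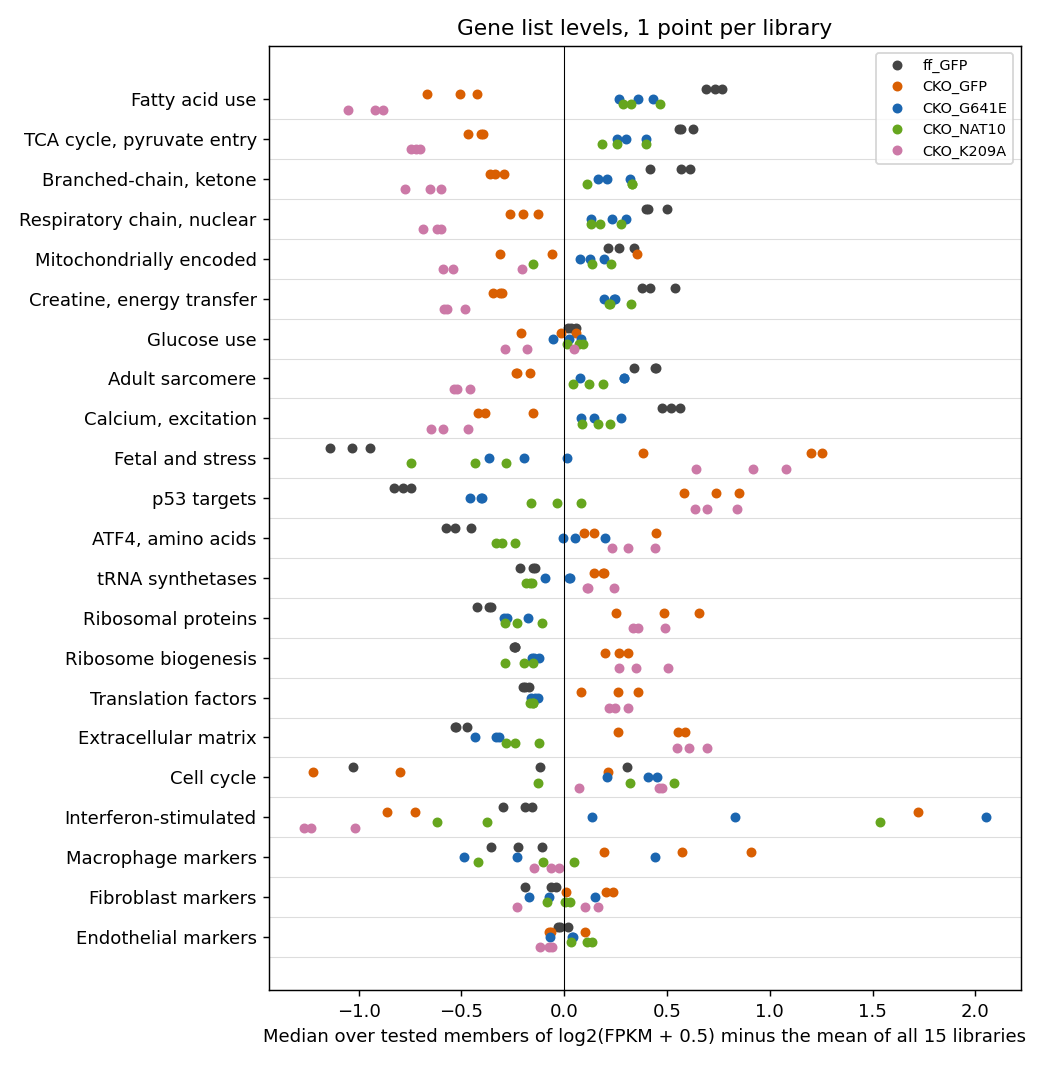
Level of each gene list in each of the 15 libraries (1 point each, coloured by group): the median over tested members of log2(FPKM + 0.5) after subtracting each gene's mean over all libraries. For fatty acid use the CKO_G641E libraries sit at 0.43, 0.27 and 0.36, between CKO_GFP (-0.51, -0.67 and -0.43) and ff_GFP (0.77, 0.73 and 0.69). For interferon-stimulated genes the libraries of CKO_GFP, of CKO_G641E and of CKO_NAT10 spread widely.

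Energy transfer genes moved with the mitochondrial ones. Of 14 members, 8 rose and 1 fell. Ckm, muscle creatine kinase, which buffers ATP at the myofibril, had 219.6, 141 and 134 FPKM in CKO_GFP, 471, 383 and 411 FPKM in CKO_G641E and 505, 551 and 541 FPKM in ff_GFP (log2 difference 1.38, SE 0.16, adjusted p = 4.07e-05 against CKO_GFP). Mb, the oxygen store myoglobin, rose from 1011 to 1190.4 FPKM in CKO_GFP to 2148 to 2287 FPKM in CKO_G641E (log2 difference 1.04, SE 0.13, adjusted p = 6.78e-05).

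Glucose genes moved in both directions, 10 higher and 6 lower of 30. Slc2a4, the insulin-responsive transporter GLUT4, rose from 21.5, 17.4 and 23.3 to 58.4, 55.7 and 54.4 FPKM (log2 difference 1.43, SE 0.11, adjusted p = 3.11e-06). Slc2a1, the GLUT1 transporter abundant in fetal heart, fell from 13.1, 15.6 and 15.3 to 3.82, 3.54 and 4.12 FPKM (log2 difference -1.81, SE 0.12, adjusted p = 1.14e-06). Slc2a1 stayed above its ff_GFP level of 1.55, 1.77 and 2.33 FPKM (log2 difference 0.87, adjusted p = 0.00429). Eno3, the muscle enolase, rose by 2.49 (adjusted p = 3.95e-06), Pfkm, muscle phosphofructokinase, by 1.43 (adjusted p = 1.3e-05), and Fbp2, muscle fructose bisphosphatase, by 2.89 (adjusted p = 9.39e-06). The groups did not overlap for these 5 genes, which the order of adjusted p or the rule for the largest rises had selected.

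Of 23 transcription regulators of mitochondrial genes, 6 rose and 1 fell, beside 15.4% and 15.9% of all tested genes. The share called in either direction was near the 31.3% of all tested genes. Rxrg, a retinoid X receptor, had 5.73, 1.92 and 4.34 FPKM in CKO_GFP and 18.2, 19.8 and 13.2 FPKM in CKO_G641E (log2 difference 2.05, SE 0.29, adjusted p = 0.000167). Perm1, a muscle coregulator of oxidative genes, rose by 1.02 (adjusted p = 0.000319), Esrrg, an oestrogen-related receptor, by 0.76 (adjusted p = 7.8e-05), and Tfam, which packs mitochondrial DNA, by 0.44 (adjusted p = 0.00478). Ppargc1a, the coactivator PGC-1 alpha, had 5.99, 11.5 and 13.5 FPKM in CKO_GFP and 12.2, 13.03 and 10.9 FPKM in CKO_G641E, with overlapping groups (log2 difference 0.28, adjusted p = 0.372). Esrra, the receptor partner of PGC-1 alpha, was at 70.3, 63.2 and 73.9 and 80.3, 66.7 and 71.01 FPKM and was not called either (log2 difference 0.07, adjusted p = 0.803).

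The motif TCAAGGTCA, bound by oestrogen-related receptors, was searched on both strands in the 250 bases before the start in the RefSeq promoter table. It was found in 1 of 44 promoters of respiratory genes that rose (2.27%), in 0.422% of all promoters in the table and in 0.321% of those of tested genes. The promoter of Atp5g3, a membrane ring subunit of ATP synthase, is shown as that match, with the motif on the opposite strand in capitals (chr2:73911327-73911426, minus strand, GRCm38.p6).
Atp5g3: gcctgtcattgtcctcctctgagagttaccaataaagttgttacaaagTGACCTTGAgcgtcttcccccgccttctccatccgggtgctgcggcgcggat
Atp5g3 rose from 292, 313 and 296 FPKM in CKO_GFP to 485, 470.1 and 512 FPKM in CKO_G641E (log2 difference 0.70, SE 0.07, adjusted p = 1.73e-05). A single match is too few to compare these shares, and no test was made. The motif was also in 1 of 12 promoters of calcium and excitation genes that rose (8.33%). Among p53 list genes that changed it was in 1 of 17 (5.88%), and in the other lists searched it was in none.

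Adult contractile genes rose in 14 of 23 cases and fell in 1, with a median of 0.49. Myh6, the fast adult myosin heavy chain, had 3142, 2314 and 2511 FPKM in CKO_GFP and 5237, 4421 and 5017 FPKM in CKO_G641E (log2 difference 0.89, SE 0.14, adjusted p = 0.000459). In ff_GFP it was 6569, 5208 and 6538 FPKM, which overlapped the CKO_G641E range. Tnni3, adult cardiac troponin I, rose from 580.4 to 627 FPKM in CKO_GFP to 953 to 1043 FPKM in CKO_G641E (log2 difference 0.73, SE 0.08, adjusted p = 2.01e-05), and Myl2, the ventricular regulatory light chain, from 965 to 1182 FPKM in CKO_GFP to 1841 to 2173 FPKM in CKO_G641E (log2 difference 0.84, SE 0.11, adjusted p = 9.64e-05). Mybpc3, cardiac myosin binding protein C, rose by 0.92 (adjusted p = 0.000483). Cmya5, a scaffold at the Z-disc and sarcoplasmic reticulum, rose by 1.48 (adjusted p = 2.06e-06). It was the only one of the list called lower than in ff_GFP (log2 difference -0.70, adjusted p = 0.0068). In 9 of 23 members every CKO_G641E heart lay below every ff_GFP heart, beside 15.4% of all tested genes, and in 1 above. Tnni1, the fetal troponin I that normally declines after birth, was 3.04, 1.12 and 0.799 FPKM in CKO_GFP and 4.14, 3.66 and 6.41 FPKM in CKO_G641E, and rose (log2 difference 1.39, SE 0.39, adjusted p = 0.017). The call on Tnni1 was lost without CKO_GFP replicate 2 or 3 or CKO_G641E replicate 3.

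Calcium handling and excitation genes held some of the largest rises in the comparison. Of 30 members, 16 rose and none fell, with a median of 0.45. Against ff_GFP, 3 were called lower, beside 1.16% of all tested genes, and none higher, with a median of -0.34. In 19 of 30 every CKO_G641E heart lay below every ff_GFP heart, beside 15.4% of all tested genes. Kcnip2 (ENSMUSG00000025221, chromosome 19, 45791839 to 45816061), the channel-interacting protein KChIP2 that enables the transient outward potassium current, had 5.05, 0.773 and 2.02 FPKM in CKO_GFP and 37.3, 32.4 and 31.9 FPKM in CKO_G641E (log2 difference 3.71, SE 0.39, adjusted p = 2.19e-05). Its pore partner Kcnd2 had 0.232, 0.0579 and 0.0389 FPKM in CKO_GFP and 1.99, 3.26 and 2.67 FPKM in CKO_G641E (log2 difference 2.36, SE 0.27, adjusted p = 4.07e-05). Both genes were low in all 3 knockout hearts and high in all 3 after G641E, and their ff_GFP values were 36.8, 49.9 and 52.3 FPKM for Kcnip2 and 3.91, 3.57 and 5.04 FPKM for Kcnd2.

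Hrc (ENSMUSG00000038239, chromosome 7, 45335290 to 45338974), the histidine-rich calcium buffer of the sarcoplasmic reticulum, had 27.2, 9.25 and 9.28 FPKM in CKO_GFP and 193, 160.2 and 171 FPKM in CKO_G641E (log2 difference 3.66, SE 0.35, adjusted p = 1.09e-05). The ff_GFP hearts held 238, 242 and 277 FPKM, above each CKO_G641E heart, a difference that was not called (log2 difference -0.53, adjusted p = 0.531). Atp2a2, the SERCA2 calcium pump, had 869, 691 and 801 FPKM in CKO_GFP, 1771, 1656 and 1559.5 FPKM in CKO_G641E and 2390.1, 2235 and 2299 FPKM in ff_GFP (log2 difference 1.08, SE 0.11, adjusted p = 1.64e-05 against CKO_GFP). Pln, phospholamban, which restrains that pump, rose from 138 to 241 FPKM in CKO_GFP to 346 to 407 FPKM in CKO_G641E (log2 difference 0.99, SE 0.17, adjusted p = 0.000762). Kcnj3, a subunit of the acetylcholine-gated potassium channel, rose from 0.0513 to 0.0858 FPKM in CKO_GFP to 2.25 to 2.94 FPKM in CKO_G641E (log2 difference 2.48, SE 0.26, adjusted p = 2.15e-05). Hcn2, a pacemaker channel, rose by 1.52 (adjusted p = 1.06e-05). Ryr2, the calcium release channel, spread from 26.01 to 51.1 FPKM in CKO_GFP around the 36.1 to 41.97 FPKM of CKO_G641E and was not called (log2 difference -0.02, adjusted p = 0.948). Without CKO_GFP replicate 1, its lowest value, Ryr2 was lower after G641E, at -0.32 (adjusted p = 0.00728). Hcn4, the pacemaker channel of the sinus node and fetal heart, did not follow Hcn2. It had 0.916, 0.988 and 1.62 FPKM in CKO_GFP, 1.07, 0.565 and 0.456 FPKM in CKO_G641E and 4.99, 2.65 and 3.85 FPKM in ff_GFP, was not called against CKO_GFP (log2 difference -0.49, adjusted p = 0.137), and was lower than in ff_GFP (log2 difference -1.85, adjusted p = 0.00283).

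Other genes with the largest rises, chosen by rank among called genes without overlap, had varied functions. Rpl3l, the heart and skeletal muscle form of ribosomal protein uL3, had 3.22, 2.09 and 2.24 FPKM in CKO_GFP, 29.1, 22.4 and 24.6 FPKM in CKO_G641E and 45.7, 57.2 and 63.7 FPKM in ff_GFP (log2 difference 3.11, SE 0.19, adjusted p = 7.46e-07 against CKO_GFP). The CKO_G641E level stayed below that of ff_GFP (log2 difference -1.11, adjusted p = 0.0128). Its general counterpart Rpl3 fell from 123 to 138 FPKM in CKO_GFP to 105 to 119.5 FPKM in CKO_G641E (log2 difference -0.26, SE 0.08, adjusted p = 0.0289), a call lost without CKO_GFP replicate 1 or 2 or CKO_G641E replicate 1 or 2. Art1, an ADP-ribosyltransferase on the muscle surface, had 0.448, 0.345 and 0.333 FPKM in CKO_GFP and 8.15, 8.29 and 6.81 FPKM in CKO_G641E (log2 difference 3.23, SE 0.25, adjusted p = 2.48e-06), with 19.7, 15.7 and 18.2 FPKM in ff_GFP. Asb15, a muscle adaptor of ubiquitin ligases, rose by 2.99 (adjusted p = 2.87e-06), Slc36a2, a transporter of small amino acids, by 3.16 (adjusted p = 3.2e-06), Pla2g5, a secreted phospholipase, by 2.85 (adjusted p = 6.68e-06), Rtn4r, the Nogo receptor, by 3.28 (adjusted p = 3.85e-05), and Gal3st3, a sulphotransferase of sugars, by 2.76 (adjusted p = 1.55e-06).

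**Figure D3:**
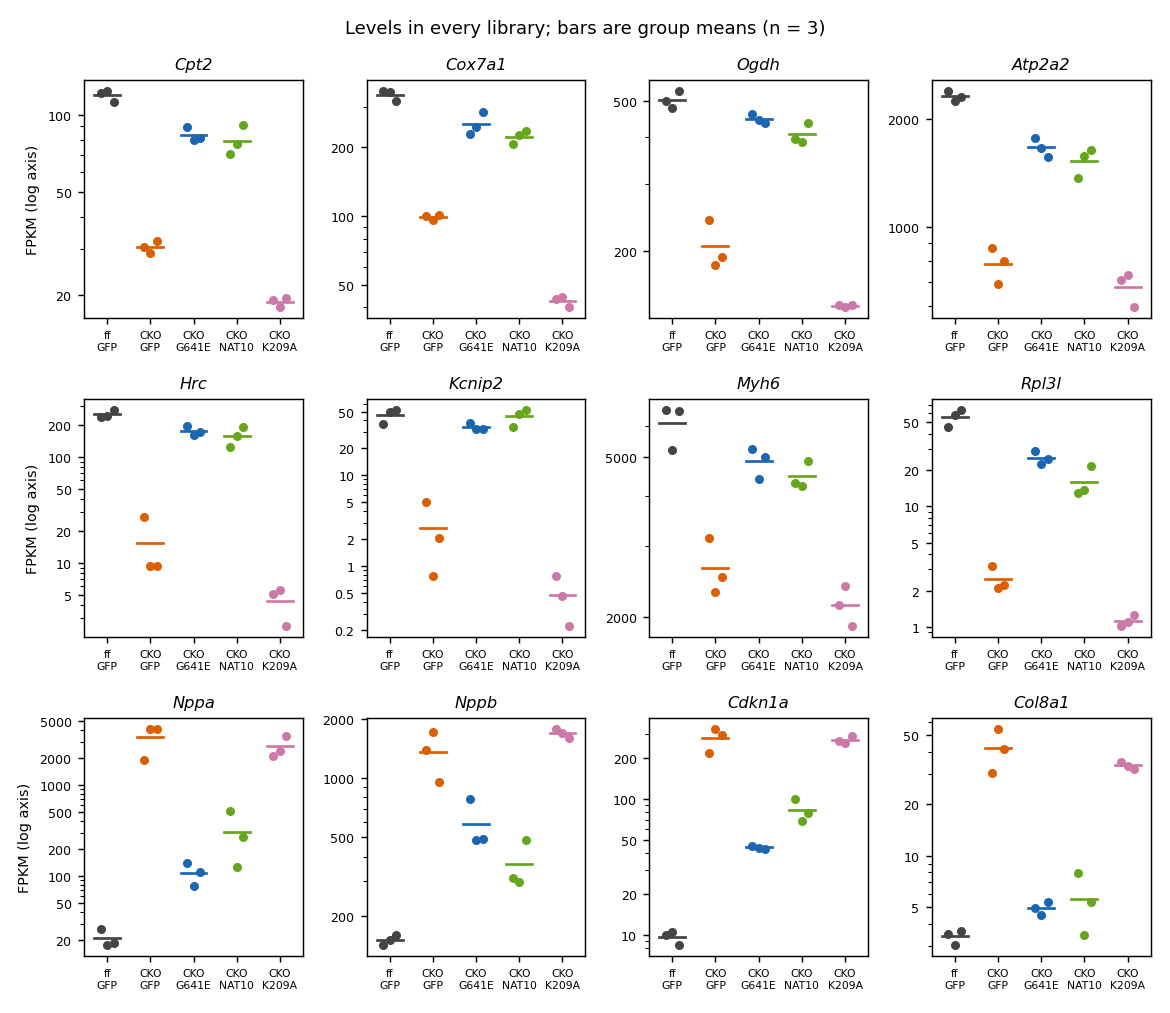
FPKM of 12 genes in each library on log axes, with bars at group means of 3 libraries. For genes of fuel use, calcium, current and contraction the CKO_G641E points sit above CKO_GFP and mostly below ff_GFP, and Nppa falls from 1897 to 4164 FPKM in CKO_GFP to 77.6 to 138 FPKM in CKO_G641E.

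Fetal and stress genes fell in 13 of 22 tested cases and rose in 2, with a median of -1.09. The list had 24 members, and Hamp and Nppc did not pass the filter on low values. Against ff_GFP, 5 of 22 were called higher, beside 0.627% of all tested genes, and none lower, with a median of 0.80. In 15 of 22 every CKO_G641E heart lay above every ff_GFP heart, beside 11.5% of all tested genes, and in none below. Nppa (ENSMUSG00000041616, chromosome 4, 148000722 to 148002079), atrial natriuretic peptide, had 1897, 4164 and 4136 FPKM in CKO_GFP and 138, 77.6 and 111 FPKM in CKO_G641E (log2 difference -4.91, SE 0.44, adjusted p = 6.79e-06), the largest fall among the genes named by the rule. In ff_GFP it was 25.97, 17.5 and 18.5 FPKM, so every CKO_G641E heart still lay above (log2 difference 2.35, adjusted p = 0.0183). Nppb, brain natriuretic peptide, had 1382, 1719.6 and 951 FPKM in CKO_GFP, 786, 485 and 492 FPKM in CKO_G641E and 143, 151 and 159 FPKM in ff_GFP. It fell against CKO_GFP (log2 difference -1.20, SE 0.23, adjusted p = 0.00186) and remained above ff_GFP (log2 difference 1.92, adjusted p = 0.00209). Against CKO_GFP replicate 3 alone the fall of Nppb was not called, at -0.73 (adjusted p = 0.0865). Ankrd1, a titin-associated stretch sensor, also fell, with 2641, 2439 and 1903 FPKM in CKO_GFP, 1398, 782 and 819.7 FPKM in CKO_G641E and 289, 256 and 276 FPKM in ff_GFP (log2 difference -1.26, SE 0.22, adjusted p = 0.000961 against CKO_GFP).

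Other stress genes ended at various distances from ff_GFP. Thbs4, a thrombospondin induced by heart load, had 56.1, 92.99 and 67.3 FPKM in CKO_GFP, 2.17, 1.76 and 3.31 FPKM in CKO_G641E and 1.37, 1.66 and 1.47 FPKM in ff_GFP (log2 difference -4.64, SE 0.20, adjusted p = 5.13e-08 against CKO_GFP, log2 difference 0.51, adjusted p = 0.243 against ff_GFP). Ankrd2, a muscle ankyrin repeat protein, fell from 4.18 to 15.2 FPKM in CKO_GFP to 0 to 0.196 FPKM in CKO_G641E (log2 difference -3.87, SE 0.33, adjusted p = 4.91e-06), and Sprr1a, a small proline-rich protein of stressed heart muscle, from 11.2 to 23.4 FPKM in CKO_GFP to 0.0875 to 0.865 FPKM in CKO_G641E (log2 difference -4.33, SE 0.37, adjusted p = 4.91e-06). Myh7, the slow fetal myosin, had 36.3, 125 and 153 FPKM in CKO_GFP and 29.5, 26.1 and 28.9 FPKM in CKO_G641E (log2 difference -1.63, SE 0.40, adjusted p = 0.00756), and CKO_GFP replicate 1 was close to the rescued hearts. Ctgf, a secreted matrix factor induced by stretch, fell from 624, 756 and 291 to 258, 60.5 and 80.5 FPKM (log2 difference -2.25, SE 0.45, adjusted p = 0.00198). CKO_G641E replicate 1 was highest for Ctgf, and all 3 stayed above the 11.8, 17.3 and 12.9 FPKM of ff_GFP (log2 difference 2.92, adjusted p = 0.00608). In a fit of the 2 groups alone the calls on Myh7 and Ctgf were lost (adjusted p = 0.0772 and 0.0509), and against CKO_GFP replicate 3 alone Ctgf was at -1.43 (adjusted p = 0.0981).

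The actins did not fall. Acta2, smooth muscle actin, which is also made in young heart muscle, had 93.6, 114 and 118 FPKM in CKO_GFP, 528, 546 and 539.6 FPKM in CKO_G641E and 298, 436 and 431 FPKM in ff_GFP, and rose (log2 difference 2.31, SE 0.38, adjusted p = 0.000527). Acta1, skeletal actin, had 215, 308 and 187 FPKM in CKO_GFP and 299, 141 and 242 FPKM in CKO_G641E, with overlapping groups (log2 difference -0.093, adjusted p = 0.889), and was higher than the 28.6, 76.97 and 83.04 FPKM of ff_GFP (log2 difference 1.92, adjusted p = 0.034). Myl7, the atrial light chain, was 0.854, 0.478 and 49.3 FPKM in the 3 CKO_G641E hearts and 0.107 to 1.01 FPKM in CKO_GFP, and Myl4 was 1.23, 0.989 and 7.66 FPKM. CKO_G641E replicate 3 alone was high for both atrial chains, and neither gene was called (log2 difference 2.14, adjusted p = 0.185 for Myl7). The summed level of 7 measured atrial markers was 119 to 129.8 FPKM in CKO_GFP and 75.6 to 143 FPKM in CKO_G641E, with the highest value in that replicate, and its Nppa of 111 FPKM lay between those of the other two.

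CATTCC, the core motif of TEAD factors, was searched in the same promoter windows. It was found on either strand in 5 of 11 promoters in the table of fetal and stress genes that changed (45.5%), in 13.1% of the promoters of tested genes and in 14.4% of all. In adult sarcomere genes that changed, nearly all of which rose, it was found in 5 of 13 (38.5%). The letters therefore stood before genes that fell and before genes that rose, and no test was made. Matches for Nppb (chr4:147985748-147985847, plus strand), Ankrd1 (chr19:36119915-36120014, minus strand) and Thbs4 (chr13:92794963-92795062, minus strand) are shown because these genes carry the stress result, each from the RefSeq promoter table, GRCm38.p6, as 100 bases in the direction of the gene with 1 match in capitals.
Nppb: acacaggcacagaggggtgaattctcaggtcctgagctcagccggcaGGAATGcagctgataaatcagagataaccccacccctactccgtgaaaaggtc
Ankrd1: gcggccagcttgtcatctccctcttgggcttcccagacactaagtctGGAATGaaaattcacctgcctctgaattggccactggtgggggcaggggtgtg
Thbs4: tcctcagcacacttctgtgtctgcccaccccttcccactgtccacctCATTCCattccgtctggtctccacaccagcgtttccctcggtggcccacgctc
The matches began 105, 123 and 197 bases before the start. Tead1, one of the factors that bind it, fell from 17.01 to 22.9 FPKM in CKO_GFP to 10.8 to 11.9 FPKM in CKO_G641E (log2 difference -0.80, SE 0.10, adjusted p = 8.12e-05), to the 11.3 to 12.6 FPKM of ff_GFP.

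Targets of the tumour suppressor p53 fell as a group. Of 28 members, 21 fell and 2 rose, with a median of -1.11, and Trp53 itself was not called (log2 difference 0.20, adjusted p = 0.506), except without CKO_GFP replicate 1, when it was higher by 0.52 (adjusted p = 0.00575). Cdkn1a (ENSMUSG00000023067, chromosome 17, 29090976 to 29100727), the p21 inhibitor of cyclin-dependent kinases, had 221, 330.5 and 298 FPKM in CKO_GFP and 45.3, 43.9999 and 43.2 FPKM in CKO_G641E (log2 difference -2.65, SE 0.15, adjusted p = 4.92e-07). The rescued hearts were close to one another and all above the 9.97, 10.5 and 8.46 FPKM of ff_GFP (log2 difference 2.14, adjusted p = 4.16e-05). Pmaip1, the cell death protein NOXA, fell from 3.45 to 4.25 FPKM in CKO_GFP to 0.239 to 0.427 FPKM in CKO_G641E (log2 difference -2.35, SE 0.15, adjusted p = 9.51e-07), a level at the low end of detection. Mdm2, the ligase that degrades p53, fell from 35.4, 35.1 and 43.6 to 16.6, 17.2 and 16.2 FPKM (log2 difference -1.16, SE 0.09, adjusted p = 3.1e-06), and Bax, a pore former of cell death, from 34.9 to 48.5 FPKM in CKO_GFP to 16.4 to 19.7 FPKM in CKO_G641E (log2 difference -1.12, SE 0.17, adjusted p = 0.000374). Gdf15, a secreted stress signal, had 126, 35.9 and 15.2 FPKM in CKO_GFP, 9.92, 6.29 and 4.24 FPKM in CKO_G641E and 0.391, 0.323 and 0.384 FPKM in ff_GFP (log2 difference -2.59, SE 0.55, adjusted p = 0.00312 against CKO_GFP), a call lost in a fit of the 2 groups alone (adjusted p = 0.0605).

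Of the p53 list, 7 of 28 members remained higher than in ff_GFP, beside 0.627% of all tested genes. They included Cdkn1a, Eda2r (log2 difference 1.40, adjusted p = 0.000179), a death receptor family member, and Phlda3 (log2 difference 1.10, adjusted p = 0.00551), an inhibitor of AKT. Many members of the p53 list also lay lower after G641E than after NAT10, and 1 of them was called. In 14 of 28 members every CKO_G641E library lay below every CKO_NAT10 library, beside 7.41% of all tested genes. Phlda3 had 86.9, 53.6 and 77.95 FPKM in CKO_NAT10 and 41.6, 39.5 and 44.5 FPKM in CKO_G641E. Eda2r had 6.77, 6.205 and 6.41 FPKM in CKO_NAT10 and 2.51, 3.56 and 3.06 FPKM in CKO_G641E, and was the member called between them (log2 difference -0.98, adjusted p = 0.0192). For Cdkn1a the values were 101, 68.5 and 79.7 FPKM in CKO_NAT10, above those of CKO_G641E in every library, and the difference was not called (log2 difference -0.89, adjusted p = 0.0662).

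**Figure D4:**
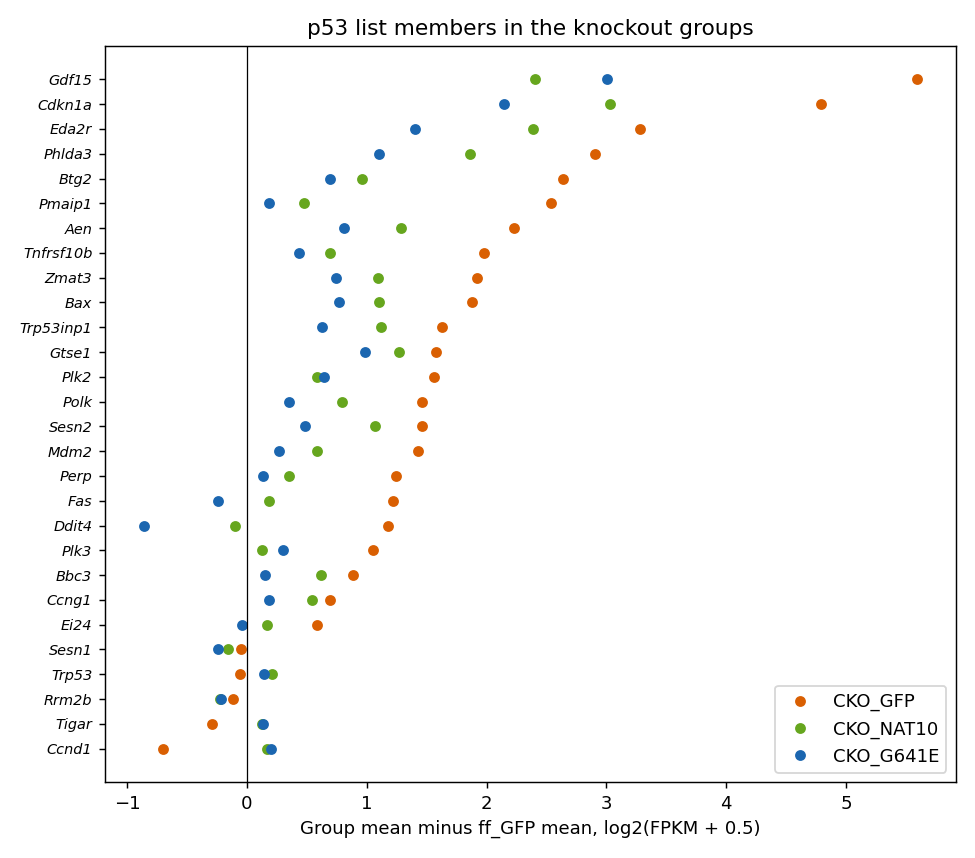
The 28 tested p53 list members: group mean minus ff_GFP mean, in log2(FPKM + 0.5), for CKO_GFP, CKO_NAT10 and CKO_G641E (n = 3 each). For Cdkn1a the values run from 4.79 in CKO_GFP to 2.14 in CKO_G641E; the groups share the ff_GFP libraries.

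Genes of ribosomal proteins fell with few exceptions, and many ribosome assembly and translation factor genes fell too. Of 79 genes of cytosolic ribosomal proteins, 72 fell and none rose, with a median of -0.72. None was called different from ff_GFP after G641E, with a median of 0.14 against it. In 30 of 79 every CKO_G641E heart still lay above every ff_GFP heart, beside 11.5% of all tested genes, and in none below. Rps18 had 135, 193 and 177 FPKM in CKO_GFP, 71.7, 72.8 and 75.2 FPKM in CKO_G641E and 62.9, 60.7 and 56.9 FPKM in ff_GFP (log2 difference -1.18, SE 0.12, adjusted p = 1.35e-05 against CKO_GFP). Rpsa fell from 304 to 393 FPKM in CKO_GFP to 159 to 178 FPKM in CKO_G641E (log2 difference -1.07, SE 0.10, adjusted p = 1.22e-05). These genes have many near-identical pseudogenes, between which the authors' counting could split reads.

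Of 62 ribosome assembly genes, 39 fell and 1 rose, with a median of -0.38. Npm1, the nucleolar chaperone nucleophosmin, fell from 53.6, 57.96 and 49.2 to 29.3, 32.4 and 33.7 FPKM (log2 difference -0.74, SE 0.09, adjusted p = 6.13e-05), and Fbl, the ribosomal RNA methyltransferase fibrillarin, from 10.01, 9.87 and 8.898 to 6.79, 5.8998 and 6.11 FPKM (log2 difference -0.58, SE 0.10, adjusted p = 0.000637). The ff_GFP levels were 28.6 to 31.6 FPKM for Npm1 and 5.27 to 5.98 FPKM for Fbl. Nop16 and Pes1, factors of the large subunit, fell by 0.88 and 0.81 (adjusted p = 4.68e-05 and 2.27e-05). Of 36 translation factors, 23 fell and 3 rose. Eif1a, of start codon scanning, fell by 1.16 (adjusted p = 2.73e-05) and Eif5 by 0.99 (adjusted p = 7.56e-06).

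RNA acetylation and transfer RNA modification genes, the list nearest to the enzyme, fell in 11 of 24 cases and rose in 3. Beside these, 15.9% of all tested genes fell and 15.4% rose. Thumpd1, the NAT10 adaptor, had 11.1, 13.5 and 12.98 FPKM in CKO_GFP, 8.82, 8.31 and 8.35 FPKM in CKO_G641E and 8.49, 7.51 and 10.04 FPKM in ff_GFP (log2 difference -0.53, SE 0.10, adjusted p = 0.00156 against CKO_GFP). Trmt61a, the catalytic part of an adenosine methyltransferase, fell by 1.29 (adjusted p = 0.000141), Mettl1, a guanosine methyltransferase, by 0.99 (adjusted p = 0.00085), and Nsun2, a cytosine methyltransferase, by 0.58 (adjusted p = 0.000165). Acetylation of RNA was not measured in this series.

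Extracellular matrix genes fell in 38 of 45 cases and rose in none, with a median of -0.74. Afterwards 1 member was called higher and 1 lower than in ff_GFP. In 17 of 45 every CKO_G641E heart lay above every ff_GFP heart, beside 11.5% of all tested genes. In 3 every one lay below, beside 15.4%. Col8a1, a short-chain collagen, had 30.1, 54.7 and 41.7 FPKM in CKO_GFP, 4.99, 4.49 and 5.39 FPKM in CKO_G641E and 3.52, 3.03 and 3.66 FPKM in ff_GFP (log2 difference -2.93, SE 0.24, adjusted p = 3.43e-06 against CKO_GFP). Postn, periostin, a product of activated fibroblasts, fell from 171, 269.6 and 147 to 47.3, 58.1 and 59.6 FPKM (log2 difference -1.78, SE 0.19, adjusted p = 2.3e-05) and was the member called higher than in ff_GFP (log2 difference 0.83, adjusted p = 0.0455). Col1a2, of fibrillar collagen I, fell from 155 to 199 FPKM in CKO_GFP to 74.7 to 83.1 FPKM in CKO_G641E (log2 difference -1.15, SE 0.09, adjusted p = 3.11e-06). Fmod, a collagen-binding proteoglycan, and Ltbp2, a microfibril protein, were among the 10 genes with the largest falls, by 3.69 and 3.40 (adjusted p = 4.74e-06 and 4.91e-06). So were Ass1, of arginine synthesis, by 3.75 (adjusted p = 1.82e-07), and Serpina3n, an acute-phase protease inhibitor, by 3.53 (adjusted p = 0.000335).

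Markers of other cells moved less uniformly, and their counts stand beside 15.4% of all tested genes called higher and 15.9% called lower. Fibroblast markers fell in 5 of 13 cases, with a summed level of 848 to 1049 FPKM in CKO_GFP and 642 to 724 FPKM in CKO_G641E. Tcf21, a defining fibroblast factor, fell from 15.7, 12.8 and 24.3 to 9.11, 7.96 and 8.899 FPKM (log2 difference -0.94, SE 0.18, adjusted p = 0.00149). Macrophage markers fell in 5 of 18 cases, with sums of 256 to 506 and 153 to 325 FPKM, and the count became 11 without CKO_G641E replicate 2 and 10 without the 3 libraries that stood apart. Cd68, a macrophage marker, fell from 11.1, 10.3 and 9.47 to 5.04, 7.07 and 4.03 FPKM (log2 difference -0.90, SE 0.16, adjusted p = 0.0011). Endothelial markers moved both ways, 5 higher and 4 lower of 15, with sums of 644 to 768 and 663 to 731 FPKM. Mural cell markers gave 3 higher and 2 lower of 12, and no call was made among 7 red cell and 5 lymphoid and neutrophil markers. The part of cell composition in the matrix and stress results was not tested.

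The amino acid response list, targets of the transcription factor ATF4, was divided. Of 27 members, 11 fell, 2 rose, and the median was -0.026. Gdf15, Ddit4 and Sesn2, which fell, are members of the p53 list as well and were counted there too. Those that fell included Ppp1r15a, the phosphatase subunit GADD34, from 27.7, 48.2 and 37.001 to 10.7, 8.96 and 12.04 FPKM (log2 difference -1.76, SE 0.20, adjusted p = 3.46e-05), and Slc3a2, a chain of amino acid transporters, from 22.1 to 34.9 FPKM in CKO_GFP to 10.7 to 12.3 FPKM in CKO_G641E (log2 difference -1.18, SE 0.14, adjusted p = 4.02e-05). Enzymes that make amino acids and one-carbon units were among those that did not fall. Asns, asparagine synthetase, had 5.53, 1.56 and 1.32 FPKM in CKO_GFP, 5.13, 6.06 and 4.89 FPKM in CKO_G641E and 0.927, 1.91 and 1.17 FPKM in ff_GFP. It rose against CKO_GFP (log2 difference 1.05, SE 0.35, adjusted p = 0.0389) although CKO_GFP replicate 1 lay within the rescued range. The call was lost without CKO_GFP replicate 2, CKO_GFP replicate 3 or any 1 of the CKO_G641E libraries, and without CKO_GFP replicate 1 the difference was 1.59 (adjusted p = 0.000103).

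Atf3 (ENSMUSG00000026628, chromosome 1, 191170296 to 191218039), a stress-induced transcription factor, had 18.8, 32.3 and 7.296 FPKM in CKO_GFP and 20.5, 13.2 and 15.9 FPKM in CKO_G641E (log2 difference -0.022, adjusted p = 0.975). In ff_GFP it was 1.95, 1.699 and 1.62 FPKM and in CKO_NAT10 2.005, 3.62 and 2.47 FPKM. All rescued hearts with G641E were thus above all hearts with NAT10 (log2 difference 2.42, SE 0.38, adjusted p = 0.04997), while CKO_GFP hearts spread on both sides of them. Phgdh, the first enzyme of serine synthesis, had 3.32, 1.77 and 1.26 FPKM in CKO_GFP, 3.56, 2.98 and 2.88 FPKM in CKO_G641E, 1.27, 0.875 and 0.839 FPKM in CKO_NAT10 and 0.6996, 0.901 and 0.686 FPKM in ff_GFP. It was not called against CKO_GFP (log2 difference 0.55, adjusted p = 0.0885) and was higher than in ff_GFP (log2 difference 1.53, adjusted p = 0.00551). Mthfd2, a mitochondrial folate enzyme, had 6.84, 2.33 and 2.22 FPKM in CKO_GFP and 7.97, 5.97 and 4.63 FPKM in CKO_G641E, and was higher than in ff_GFP (log2 difference 1.92, adjusted p = 0.0094). CKO_GFP replicate 1 was the highest knockout heart for both Phgdh and Mthfd2. Without it both were called higher than in CKO_GFP, Phgdh by 0.86 (adjusted p = 0.00233) and Mthfd2 by 1.24 (adjusted p = 0.000836). Psat1, the next enzyme of serine synthesis, showed 3.39, 2.902 and 2.64 FPKM in CKO_G641E beside 0.818 to 1.49 FPKM in ff_GFP (log2 difference 1.01, adjusted p = 0.0183).

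For 8 of 27 ATF4 members the level after G641E was called above that of ff_GFP, beside 0.627% of all tested genes. Gdf15 was counted among these and among the p53 members still above ff_GFP. In 13 of 27 members every CKO_G641E library lay above every CKO_NAT10 library, beside 7.99% of all tested genes. In 3 members, Cebpb, Ddit4 and Sesn2, every one lay below, beside 7.41% of all tested genes. The centred list medians were 0.20, -0.00 and 0.05 in CKO_G641E, -0.24, -0.30 and -0.33 in CKO_NAT10 and 0.45, 0.14 and 0.10 in CKO_GFP. Atf4 itself had 40.7, 43.9 and 49.7 FPKM in CKO_G641E and 35.5, 36.8 and 36.04 FPKM in CKO_NAT10 (log2 difference 0.30, adjusted p = 0.4 between them). Of 20 transfer RNA synthetase genes, many of them ATF4 targets, 8 fell and 1 rose against CKO_GFP. Gars, glycyl-tRNA synthetase, fell from 40.3 to 46.4 FPKM in CKO_GFP to 33.7 to 34.5 FPKM in CKO_G641E (log2 difference -0.34, SE 0.07, adjusted p = 0.00236) and stayed above ff_GFP (log2 difference 0.41, adjusted p = 0.00956).

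Genes higher than in ff_GFP and not called against CKO_GFP, chosen after their values were seen, included more than amino acid genes. Tlr4, the receptor for bacterial lipopolysaccharide, had 4.45, 3.28 and 4.02 FPKM in CKO_GFP, 3.89, 4.13 and 3.85 FPKM in CKO_G641E, 2.04, 2.05 and 2.13 FPKM in CKO_NAT10 and 1.47, 1.26 and 1.14 FPKM in ff_GFP (log2 difference 1.32, adjusted p = 0.00012 against ff_GFP). Tnfrsf12a, the TWEAK receptor, had 146, 141 and 115 FPKM in CKO_GFP, 94.6, 61.8 and 101 FPKM in CKO_G641E and 32.7, 22.3 and 24.2 FPKM in ff_GFP (log2 difference 1.67, adjusted p = 0.0086 against ff_GFP). Abra, an actin-binding protein of muscle, had 26.3, 30.8 and 13.99 FPKM in CKO_GFP, 22.6, 12.8 and 14.99 FPKM in CKO_G641E and 5.35, 4.64 and 4.37 FPKM in ff_GFP (log2 difference 1.67, adjusted p = 0.00698 against ff_GFP). For Tlr4 and Abra the CKO_G641E hearts overlapped the CKO_GFP hearts. For Tnfrsf12a all CKO_G641E hearts lay below all CKO_GFP hearts, a difference that was not called (log2 difference -0.66, adjusted p = 0.0828). In CKO_NAT10, Tnfrsf12a had 59.4, 24.1 and 43.7 FPKM and Abra 5.78, 4.05 and 6.41 FPKM. For each of these genes the CKO_G641E hearts stood clear of ff_GFP.

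**Figure D5:**
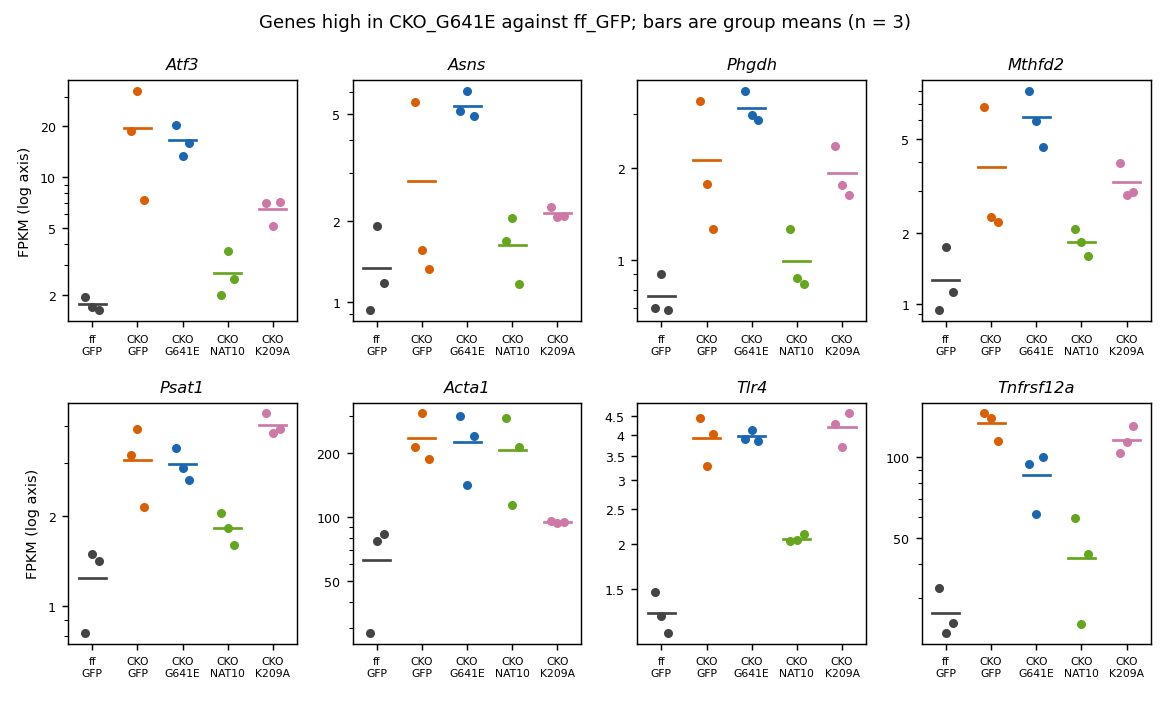
FPKM in each library, on log axes, of 8 genes higher in CKO_G641E than in ff_GFP, with bars at group means of 3 libraries. Atf3 is 13.2 to 20.5 FPKM in CKO_G641E against 2.005 to 3.62 FPKM in CKO_NAT10 and 1.62 to 1.95 FPKM in ff_GFP; Acta1 overlaps between the 2 rescue groups.

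Cell cycle genes rose in 15 of 40 cases and fell in none, with a median of 1.00. Mki67, a proliferation marker, had 3.62, 1.22 and 0.299 FPKM in CKO_GFP and 4.402, 4.83 and 3.75 FPKM in CKO_G641E (log2 difference 1.43, SE 0.51, adjusted p = 0.0468), and Rrm2, a subunit of ribonucleotide reductase, had 4.48, 1.94 and 1.09 and 8.99, 10.8 and 9.72 FPKM (log2 difference 1.94, SE 0.47, adjusted p = 0.0073). CKO_GFP replicate 1 was the highest knockout library for both genes. Without it, 33 members were called, without CKO_GFP replicate 2 or 3 the count was 5 or 4, and without the 3 libraries that stood apart it was 27. It was 5, 5 and 8 without CKO_G641E replicate 1, 2 or 3. Mki67 itself was called without CKO_GFP replicate 1 and with no other library left out. The ff_GFP hearts also spread, with Mki67 at 0.872, 3.87 and 2.57 FPKM, and the type of dividing cell is not known from whole heart. Cenpa, the centromeric histone, did not depend on that library, with 5.15, 3.31 and 2.81 FPKM in CKO_GFP and 9.91, 9.99 and 13.3 FPKM in CKO_G641E (log2 difference 1.47, SE 0.18, adjusted p = 6.84e-05).

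Interferon-stimulated genes differed widely between the libraries of CKO_GFP, of CKO_G641E and of CKO_NAT10. The centred list medians were 1.72, -0.72 and -0.86 in CKO_GFP, 0.83, 2.05 and 0.14 in CKO_G641E and -0.62, 1.54 and -0.38 in CKO_NAT10, with the lowest levels in CKO_K209A. In ff_GFP they ran from -0.30 to -0.16, below every CKO_G641E library. Every CKO_G641E heart lay above every ff_GFP heart in 21 of 31 members, beside 11.5% of all tested genes. None of the members was called against ff_GFP. Against CKO_GFP 1 of 31 members rose, Rsad2, an antiviral enzyme. Its values went from 18.98, 1.69 and 2.11 to 16.96, 28.5 and 11.6 FPKM (log2 difference 1.93, SE 0.68, adjusted p = 0.0467). The call on Rsad2 was lost without any 1 of these libraries other than CKO_GFP replicate 1. Without CKO_GFP replicate 1 the count was 18, and without the 3 libraries that stood apart it was 25. Isg15, a ubiquitin-like antiviral protein, had 31.8, 3.16 and 2.83 FPKM in CKO_GFP and 14.8, 27.7 and 10.7 FPKM in CKO_G641E (log2 difference 1.21, adjusted p = 0.27), high in the same libraries, and without CKO_GFP replicate 1 the difference was 2.28 (adjusted p = 0.01).

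Protein quality, oxidant and transcription factor lists gave mixed counts, beside 15.4% of all tested genes called higher and 15.9% called lower. Chaperone and endoplasmic reticulum genes gave 4 higher and 6 lower of 29. Hspd1, the mitochondrial chaperonin, rose by 0.58 (adjusted p = 0.000267), and Hsp90aa1, the inducible cytosolic chaperone, fell from 81.9 to 103 FPKM in CKO_GFP to 51.1 to 57.1 FPKM in CKO_G641E (log2 difference -0.73, SE 0.09, adjusted p = 7.36e-05) and stayed above ff_GFP (log2 difference 0.74, adjusted p = 0.00209). Proteasome genes gave 1 higher and 4 lower of 31. Antioxidant genes gave 5 higher and 6 lower of 22. Sod2, the mitochondrial superoxide dismutase, rose by 0.74 (adjusted p = 1.34e-05), and Gpx3, the secreted glutathione peroxidase, fell from 142, 362 and 325 to 56.01, 53.2 and 60.1 FPKM (log2 difference -2.17, SE 0.25, adjusted p = 4.13e-05). Of 15 cardiac transcription factors, 3 rose and 4 fell. Hopx, a homeodomain-only protein, rose by 1.48 (adjusted p = 1.45e-05), Mef2c by 0.41 (adjusted p = 0.00109), and Tbx20 fell by 0.56 (adjusted p = 0.00099).

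The direct comparison of G641E with unmodified NAT10 called 8 of 15321 genes (0.0522%), 5 higher (0.0326%) and 3 lower (0.0196%), with 1031 at an unadjusted p under 0.05. The 95% interval of the difference lay within 1 log2 unit on either side of 0 for 87.8% of genes, and at the median it reached 0.32 on either side of the estimate. Of the lists that rose from CKO_GFP, the medians between the 2 rescues were 0.038 for fatty acid genes, 0.039 for TCA genes, 0.029 for respiratory genes, 0.03 for calcium and excitation genes, 0.13 for adult contractile genes and 0.16 for cardiomyocyte markers. Every CKO_G641E library lay above every CKO_NAT10 library in 7 of 23 adult contractile genes, 8 of 22 fetal and stress genes, 10 of 20 transfer RNA synthetase genes and 12 of 31 proteasome genes, beside 7.99% of all tested genes, and below in none of these 4 lists. Other lists went the other way. CKO_G641E lay below in 11 of 45 matrix genes, 6 of 15 endothelial markers and 6 of 23 mitochondrial regulators, beside 7.41% of all tested genes. It lay above in 3, 0 and 2 of these. For the restored genes Cpt2 and Hrc the 95% intervals between the rescues ran from -0.12 to 0.27 and from -0.58 to 0.94. A difference that misses the threshold does not show that the 2 forms act alike.

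Against K209A, given at the same dose, 6250 genes differed (40.8%), 3252 higher (21.2%) and 2998 lower (19.6%) with G641E. All 25 TCA genes, 30 of 35 fatty acid genes, 73 of 75 respiratory genes and 21 of 30 calcium and excitation genes were higher with G641E. Cpt2 had 19.1, 17.9 and 19.5 FPKM in CKO_K209A (log2 difference 2.12, SE 0.09, adjusted p = 8.69e-09), and Cdkn1a had 268, 261 and 294 FPKM (log2 difference -2.62, SE 0.15, adjusted p = 6.89e-08). Kcnip2 was 0.769, 0.462 and 0.2196 FPKM with K209A, lower than in any CKO_G641E heart (log2 difference 5.16, SE 0.39, adjusted p = 5.57e-07). The labels do not give the amount of either protein in these hearts. With libraries scaled to equal reads in genes the split was 2365 higher and 4513 lower, and the median of all genes moved to -0.13.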

How the data were processed

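Libraries of poly-A RNA from 15 mouse hearts gave paired reads of 150 bases, per the labels. HISAT2 2.0.5 mapped them to the mouse build GRCm38 (mm10), and genes were counted with featureCounts 1.5.0-p3, per the labels' protocols; CASAVA and DESeq2 1.20.0 are listed in the submitters' processing notes, with no use stated. The authors deposited FPKM for 54532 genes, with gene lengths, per the file headers. How FPKM were computed is not given in the sources used here. Once solved for library size, FPKM times gene length came out whole for 100% of values above 0 (tolerance 0.05 reads). The library sizes behind the deposited FPKM differed from the reads in genes by factors of 0.908 to 1.13. These factors differed between groups, lowest in ff_GFP (0.908 to 0.933) and highest in CKO_K209A (1.08 to 1.13). A tested gene had a median of 233 reads per library. Whether counting used strand is not given, so overlapping and antisense genes are uncertain.

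The 15321 genes that reached 0.5 FPKM in 3 or more of the 15 libraries were tested with limma 3.58.1 in R 4.3.3 on log2(FPKM + 0.5), in 1 linear model of 5 groups with 10 residual degrees of freedom and a mean-variance trend. Adjusted p values are Benjamini-Hochberg values of limma over all tested genes, within each comparison. The members, gene lists, motifs and tests were chosen with earlier results of these data known, so no list is independent evidence of its direction. Named genes were Nat10, the 10 with the largest rise and the 10 with the largest fall (called, no overlap, at least 1 FPKM in the higher group, known function, no genes of chromosome Y and no Xist), from every list as many as 4 genes, taken in order of adjusted p, and a panel of heart genes; Fgf21 of that panel did not pass the filter. Genes outside this rule are the members of the fetal, p53 and ATF4 lists given beyond 4, Atp5g3 and the genes described as still above ff_GFP. Alternatives were another pseudocount (0.1 and 1), no filter, a mean of at least 5 FPKM, the 2 groups alone, a replicate block, Xist as a term, quantile normalization, rescaling to equal reads in genes, limma-voom on recovered reads, and leaving out libraries. In simulated data for CKO_G641E minus CKO_GFP with 15321 genes, changes of 1.5-fold were called in 48.6%, of 2-fold in 79.7% and of 4-fold in 97.0% of changed genes, and 9 of 15121 unchanged genes were called. The changed genes, 70, 64 and 66 in number, were drawn only from genes above a minimum of reads. In the data 31.3% of tested genes were called, so these rates need not hold there or for genes with few reads.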

Additional observations from a re-analysis of the deposited data

Results flagged for a closer look

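Between CKO_G641E and CKO_NAT10, whose effects over the same knockout share the CKO_GFP libraries, 8 genes differed by the direct limma test (adjusted p under 0.05). Atf3 was higher with G641E by 2.42 on the log2 scale. Cabcoco1, a calcium-binding coiled-coil protein, was higher by 1.11 (8.903, 7.16 and 6.98 FPKM against 3.04, 2.95 and 3.86 FPKM), and CKO_GFP held 0.699, 0.591 and 0.848 FPKM. Dusp27, an inactive phosphatase of muscle, was higher by 0.82 (41.1, 32.1 and 39.1 FPKM against 20.8, 19.2 and 22.6 FPKM). Tlr4 was higher by 0.79 and Filip1, a filamin-interacting protein, by 0.67 (26.1, 24.4 and 26.1 FPKM against 17.8, 14.6 and 15.6 FPKM). The p53 target Eda2r was lower, with a difference of -0.98. The microRNA genes Mir320 and Gm44462 were lower, with differences of -1.70 and -1.49, and were listed at 0 in all 3 CKO_G641E libraries. Poly-A libraries of long fragments measure such short genes poorly. Every flag here came from the direct test and none from the spread within a group, since groups of 3 are not tested for single samples that stand apart.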

How the results depend on the processing

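Against CKO_GFP, the counts of 2352 higher and 2441 lower genes stayed within 1.5 times under every alternative run except 2: 1438 were higher with a mean of at least 5 FPKM, where 6741 genes were tested, and 1367 higher and 1336 lower with the 2 groups alone, a fit with fewer samples. Replicate numbers did not pair the libraries (correlations of deviations -0.03, -0.12 and 0.10), and a replicate block gave 4716 calls, 2316 higher and 2400 lower; under that block the calls on Rsad2 and Atf4 were lost, and Phgdh and mt-Co3 were called. Against ff_GFP, 96 higher and 178 lower became 146 higher with 2 groups alone, 153 higher and 81 lower after rescaling to equal reads (65.4% of calls higher, from 35.0%), 154 and 111 with limma-voom, 111 lower with Xist as a term, 77 lower without the 3 libraries apart, and 36 to 55 higher and 34 to 111 lower with 1 library left out. Against CKO_NAT10, 5 higher and 3 lower became 3 and 1 with a pseudocount of 0.1, 0 and 0 with 2 groups alone (1471 at an unadjusted p under 0.05), 1 higher after rescaling, 3 higher with limma-voom, 2 higher without the 3 libraries, 6 lower without a filter, 5 lower after quantile normalization, and 0 to 1 higher and 0 to 2 lower with 1 library left out. Against CKO_K209A, 3252 higher and 2998 lower became 2035 and 1828 with a mean of at least 5 FPKM, and 4513 and 4577 were lower after rescaling and with limma-voom, which moved the median of all genes to -0.13 and -0.16. The cause was not tested for any of these.

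Genes that were not called against CKO_GFP changed sign. Atf3 (-0.022) was 0.53 with Xist as a term, 0.048 after quantile normalization, 0.21 without the 3 libraries, 1.10 against CKO_GFP replicate 3 alone (adjusted p = 0.0145), and -0.59 to 0.45 with 1 library left out. Acta1 (-0.093) was 0.16 without the 3, 0.21 against replicate 3 alone and -0.32 to 0.22 with 1 left out. Cd36 was -0.054, -0.065 and -0.063 to 0.23, and Ppargc1a -0.10, -0.16 and -0.049 to 0.51, under the same settings. Esrra was -0.037 with Xist as a term, -0.029 against replicate 3 alone and -0.0033 to 0.13 with 1 left out, and Ryr2 was 0.051 after quantile normalization and -0.32 to 0.16 with 1 left out. Psat1 was 0.036 without the 3, 0.39 against replicate 3 alone and -0.22 to 0.15 with 1 left out. Tlr4 was -0.024 after rescaling, -0.029 with limma-voom, -0.021 against replicate 3 alone and -0.087 to 0.11 with 1 left out, and Myl4 was -0.15 to 1.08 with 1 left out. Of 123 genes followed through the settings, 105 were called in the comparison with CKO_GFP. With 1 library left out, a call was lost in at least 1 case for Rsad2, Mki67, Asns, Rpl3, Atf4 and Tnni1 and gained for Ryr2, Isg15, Mthfd2, Phgdh, Trp53, mt-Co3 and Abra; with the 2 groups alone it was also lost for Myh7, Ctgf and Gdf15, against CKO_GFP replicate 3 alone for Gars, Nppb, Ctgf and Cpt1b, and after quantile normalization for Myh6.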
